A study of Homo sapiens with 4 samples.

Results

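The speckled protein genes SP110, SP140, SP140L and SP100 lie side by side on the long arm of chromosome 2, and their transcript levels were examined in cadmium-resistant and control breast cancer cells. The 4 genes were picked out of the 61541 genes of the count table as one family of neighbours. The family was chosen by the difference in SP140 between the groups, so the values of SP140 in that contrast are given as a description without a test. The values of the other 3 genes did not enter the choice. All 4 genes passed the low-count filter of the differential expression test.

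MDA-MB-231 is an established human breast cancer line of mesenchymal character. Control cells were the untreated line. Cadmium-resistant cells were the same line passaged for a long period in cadmium sulfate, a toxic metal salt, raised to a final 10 µM, and they were not labelled as clones. How many independent selections gave rise to the resistant cells, and whether controls were passaged in parallel, is not given in the sources used here. Total RNA was made into libraries with an mRNA-seq kit and sequenced, giving 2 control libraries, named control 2 and control 3 after the numbers in the count table, and 2 cadmium libraries, named cadmium 1 and cadmium 2.

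SP100 is a founding constituent of PML nuclear bodies, the dot-like structures in which PML, DAXX and SUMO-modified proteins gather and which act in antiviral defence and gene silencing. The proteins of the family share a multimerisation domain at the N terminus and a DNA-binding SAND domain, and several carry a PHD finger and a bromodomain, the modules with which chromatin marks are read. Interferons induce the genes of the family, and SP140 and SP110 are best known from leukocytes, where SP140 restrains transcription at silent genes and SP110 is linked to immunity against intracellular bacteria.

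The start sites of these genes are shown because they tell which members share DNA sequence around their starts. Whether shared sequence regulates these genes was not tested. RefSeq (GRCh38.p14) places the start of SP140 at position 230225736 of the plus strand and the upstream start of SP110 at 230225636 of the minus strand. The pair is therefore divergent, with 100 bases between the start sites, and 199 bases are common to both promoter windows. A window here is the 250 bases before a start site and the 50 bases after it. The SP140 window is chr2:230225486-230225785, plus strand, and capitals mark the overlapping matches to AA, any 2 bases and GAAA, the core bound by interferon regulatory factors, read on the other strand.
SP140 promoter: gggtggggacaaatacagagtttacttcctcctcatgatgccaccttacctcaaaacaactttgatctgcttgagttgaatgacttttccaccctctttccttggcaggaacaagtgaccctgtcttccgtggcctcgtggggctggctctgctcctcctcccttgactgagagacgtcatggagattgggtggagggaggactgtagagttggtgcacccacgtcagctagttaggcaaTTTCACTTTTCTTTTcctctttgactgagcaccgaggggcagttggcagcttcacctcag

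The capitals in the SP140 promoter belong to a run of 16 bases that recurred across the cluster. It was the longest run common to the SP140 window, both SP110 windows and the SP140L window, and it was searched for after the windows had been seen. Over all 35116 promoter windows, 4 held the run on either strand, and these were the windows it was derived from. SP100 had the same run with a single difference, T9C, counted from 1 at the 5′ end of the run. Allowing 1 difference, 13 windows of 12 genes held it, and these include the family windows given below. The lines below give the run in capitals with 12 bases on each side, and the differing base of SP100 in lower case.
SP140 and SP110 upstream start (chr2:230225726-230225741, plus strand): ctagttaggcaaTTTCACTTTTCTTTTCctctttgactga
SP110 downstream start (chr2:230220020-230220035, minus strand): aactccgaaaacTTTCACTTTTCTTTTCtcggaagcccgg
SP140L (chr2:230327106-230327121, plus strand): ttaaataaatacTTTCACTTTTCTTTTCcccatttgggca
SP100 (chr2:230416137-230416152, plus strand): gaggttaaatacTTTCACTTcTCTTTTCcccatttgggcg

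The run covered bases -10 to 6 around the RefSeq start of SP140 and ended 36 to 90 bases before the RefSeq starts in the other windows that held it. These positions depend on the annotation. In the gene records used for counting, SP110 begins at 230225729, inside the run, and SP140 at 230203110, inside SP110. The shorter core of AA, any 2 bases and GAAA, a motif also added after the windows had been seen, was found in 22.8% of all windows, so its presence alone does not set these genes apart. The longer interferon-stimulated response element core, GAAA followed by any 2 bases and GAAA, was found in no window of the family and in 3.57% of all windows. The metal response element core, TGCACNC or TGCGCNC on either strand, matched once in the window that SP140 and SP110 share, once in SP140L and once in the upstream window of SP100, and 29.6% of all windows held it. The AP-1 letters TGANTCA were present in SP140L and in the upstream window of SP100, against 7.71% of all windows, and absent from those of SP140 and SP110. The STAT letters, TTC, any 3 bases and GAA, occurred in the downstream SP110 window, against 7.66% of all windows. The SP140L and upstream SP100 windows aligned over 279 positions with 89.6% identity.

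Libraries held between 51934729 and 61916007 reads assigned to genes. The controls differed from each other more than the cadmium libraries did. Over 12924 genes with a mean normalised count of at least 100, the 2 controls had a median absolute log2 difference of 0.39 and the 2 cadmium libraries one of 0.11. VIM, CD44 and EGFR were abundant in all libraries and ESR1 had between 2.13 and 18.9 normalised counts, as the line is known for. Other markers expected to be low were not absent. EPCAM reached 2410 in control 2 and lay between 662 and 774 in the other libraries, CDH1 reached 615 in control 3 and lay between 107 and 169 in the others, and PGR had 11.4 and 6.38 in the controls and 25.9 and 29.6 in the cadmium libraries. Since SP140 is a leukocyte gene, 12 leukocyte markers were examined. CD3E and MS4A1 were listed at 0 in every library and SPI1 had at most 1 read. The summed normalised count of the 12 markers was 27809 and 27887 in the controls and 27370 and 25234 in the cadmium libraries. Of the 12 markers 6 passed the low-count filter, and 0 of these were called. Over all 19834 genes tested 0.6% were called higher in cadmium and 0.534% lower. Most of the sum came from CD74 and LAPTM5, which moved in opposite directions between libraries. CD74 had 25377 normalised counts in control 2 and 17897 to 20291 in the others, whereas LAPTM5 had 2093 in control 2 and 6859 to 7296 in the others. CD14 had 221 and 133 in the controls and 68.7 and 120 in the cadmium libraries. PTPRC had 1.89, 144, 36.8 and 42.5 normalised counts in control 2, control 3, cadmium 1 and cadmium 2.

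SP140 (ENSG00000079263, chromosome 2, 230203110 to 230313215, plus strand, hg38) encodes the reader protein of the family best known from lymphocytes and macrophages. Normalised read counts were 395 (control 2), 306 (control 3), 1514 (cadmium 1) and 1500 (cadmium 2). The cadmium libraries lay close together and far above both controls. Group means were 350 ± 62.5 (SD, n = 2) and 1507 ± 9.92 (SD, n = 2), which is a difference of 4.30-fold, or 2.10 ± 0.29 (standard error) on the log2 scale. The log2 value was 1.92 when control 3 was left out and 2.30 when control 2 was left out. The ratio of a single cadmium library to a single control ran from 3.80-fold to 4.94-fold. In bulk RNA, more transcript per cell and more cells that express the gene cannot be told apart.

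**Figure D1:**
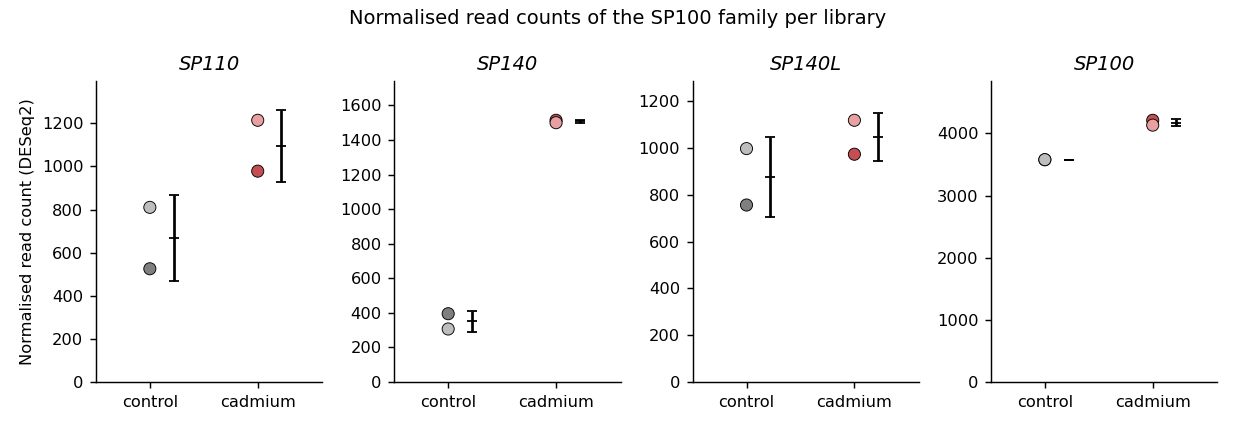
Normalised read counts (vertical axis, DESeq2 size factors, starting at 0) of SP110, SP140, SP140L and SP100 in control and cadmium-resistant cells. Points are libraries (dark grey control 2, light grey control 3, dark red cadmium 1, light red cadmium 2), bars are mean ± SD (n = 2), and the gap between groups is widest for SP140, with 306 to 395 against 1500 to 1514.

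SP110 (ENSG00000135899, 230165186 to 230225729, minus strand) encodes an interferon-induced nuclear body protein. Its upstream RefSeq start lies in the same stretch of DNA as the start of SP140, and its downstream start at 230219984. Which start was used in these cells was not tested. SP110 had 525 normalised counts in control 2 and 810 in control 3, and 978 and 1214 in cadmium 1 and cadmium 2. Both cadmium libraries lay above both controls, but the controls themselves differed 1.54-fold. The difference on the log2 scale was 0.72 ± 0.35 (standard error), which is 1.64-fold, and the 95% interval of the fold ran from 1.03 to 2.63. SP110 was not called over all genes by DESeq2 (adjusted p = 0.654, unadjusted p = 0.0386). The estimate moved to 0.43 when control 2 was left out (DESeq2 adjusted p = 0.229) and to 1.05 when control 3 was left out. In the latter case SP110 passed the threshold (DESeq2 adjusted p = 4.35e-05), in a comparison that called 13.5% of all genes higher in cadmium.

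SP140L (ENSG00000185404, 230327184 to 230403732, plus strand) is a close relative of SP140. Control 2 and control 3 had 757 and 998 normalised counts, and cadmium 1 and cadmium 2 had 974 and 1120. The groups overlapped, because control 3 exceeded cadmium 1. The difference on the log2 scale was 0.25 ± 0.30 (standard error) and was not called by DESeq2 (adjusted p = 1.00). The 95% interval of the fold reached from 0.790 to 1.80. Leaving out control 2 gave 0.07, and leaving out control 3 gave 0.46.

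SP100 (ENSG00000067066, 230415942 to 230545606, plus strand), the nuclear body scaffold, was the most abundant member. The 2 controls had 3577 and 3578 normalised counts, and cadmium 1 and cadmium 2 had 4212 and 4134. The libraries of each group lay very close together and the cadmium libraries were higher, by 1.16-fold to 1.18-fold in the 4 pairings. The difference of 0.22 ± 0.24 (standard error) on the log2 scale was not called by DESeq2 (adjusted p = 1.00). The 95% interval of the fold ran from 0.840 to 1.62, so a change larger than 1.62-fold lies outside it. The standard error borrows the spread of other genes at this level, which exceeds that of the SP100 libraries.

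Of the 3 genes that did not enter the choice, 0 were called at an adjusted p-value below 0.1. Among all 19834 genes tested, 0.6% were called higher in cadmium and 0.534% lower. Both cadmium libraries lay above both controls for SP110 and SP100, as they did for 20.3% of all genes tested. The labels call the controls biological replicates and the cadmium libraries replicates, and nothing in them ties the libraries to separate selections. The p-values therefore rest on the spread between these libraries, which may be partly technical, and on that of other genes at a similar level.

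Comparison of members with each other used counts scaled by the exon length of the table and by the assigned reads of the library (RPKM). SP100 was the highest member in every library, at 4.32 and 4.58 RPKM in the controls and 5.43 and 5.23 RPKM in the cadmium libraries. SP140 stood at 1.21 and 0.993 RPKM in control 2 and control 3 and at 4.95 and 4.81 RPKM in cadmium 1 and cadmium 2. It was thus the third of the 4 genes in control 2, the lowest in control 3 and second to SP100 in both cadmium libraries. The exon lengths include bases shared with other genes, 23.4% of SP110 and 3.05% of SP140, where reads were dropped. The RPKM of SP110 may therefore be set too low against that of SP140. In control 2 these genes stood at 1.01 and 1.21 RPKM, so their order there may depend on the scaling.

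The share of SP140 in the summed RPKM of the family was 13.7% in control 2 and 9.52% in control 3, and 31.8% and 30.0% in cadmium 1 and cadmium 2. The ratio of SP140 to SP100 in RPKM was 0.279 and 0.217 in the controls and 0.910 and 0.919 in the cadmium libraries. The ratio of SP140 to its divergent neighbour SP110 was 1.19 and 0.599 in the controls and 2.45 and 1.96 in the cadmium libraries. This ratio may be set too high by the exon bases that SP110 shares with other genes. Between the controls the neighbours moved in opposite directions, with SP110 higher and SP140 lower in control 3. The summed RPKM of the other 3 genes was 7.62 and 9.44 in the controls and 10.6 and 11.2 in the cadmium libraries.

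**Figure D2:**
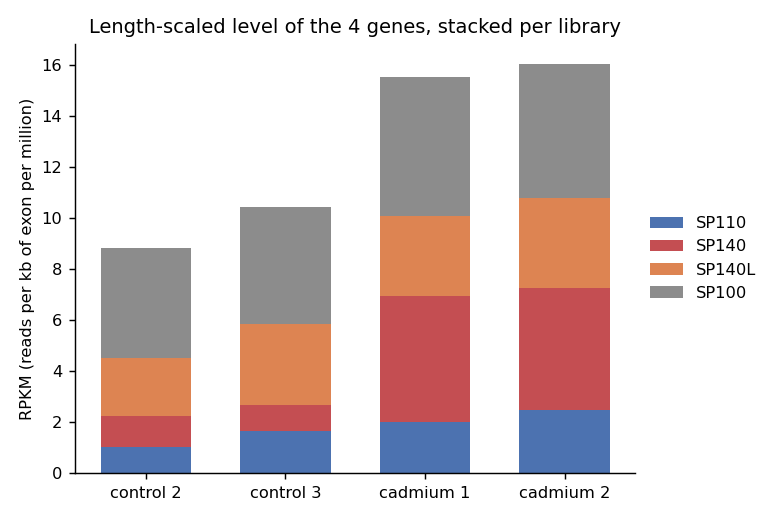
Length-scaled levels (vertical axis, RPKM, starting at 0) of SP110, SP140, SP140L and SP100 stacked for each library on the horizontal axis. The SP140 segment measures 1.21 and 0.993 in control cells and 4.95 and 4.81 in cadmium-resistant cells, while SP100 is the tallest segment throughout.

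The overlap of these genes with each other and with further genes bears on the counts. Reads were counted without strand, and reads that map to several places or fall into exons of several genes were dropped by the settings used. SP140 and SP110 shared 170 exon bases (230203110 to 230203279), which is 3.05% of the SP140 exon length of 5582 bases. Of that length 10.1% lay before the RefSeq start. In SP110 23.4% of the exon length was shared, mostly with the antisense-strand gene ENSG00000225963, which itself had 4 reads in each control, 23 in cadmium 1 and 15 in cadmium 2. Without strand, reads from SP110 and from this gene cannot be told apart where their exons overlap. Such reads were counted for neither gene, so the SP110 count leaves them out. SP100 shared 4.68% of its exon length, mostly with the pseudogene HMGB1P3, and SP140L shared none.

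Paralogue identity was measured as the share of 75-base stretches of a gene's GENCODE transcripts that occur in transcripts of another gene. SP140 and SP140L had 552 stretches in common, which is 9.01% of those of SP140 and 9.15% of those of SP140L. SP100 had 0 of 14560 stretches in common with another member. Most of the SP140 transcript is therefore distinct from SP140L at this length, and the 2 genes can be counted apart outside the shared stretches.

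The genes around the cluster were compared to see whether the region moved as a block. The cluster spans 380421 bases, and no other gene with a mean normalised count of at least 100 lies inside it. For the 5 nearest such genes on each side the median log2 difference was -0.10. Of these 10 genes 0 were called, and over all genes tested 0.6% were called higher and 0.534% lower. On the side of SP110, DAW1 had a log2 fold change of 0.72, PID1 one of -1.004, DNER one of -0.16, TRIP12 one of 0.19 and FBXO36 one of -0.48. On the side of SP100, CAB39 had a log2 fold change of 0.20, ITM2C one of -0.23, PSMD1 one of -0.04, ARMC9 one of -0.01 and RPS28P4 one of -0.24. PID1 had the lowest adjusted p of the 10 in DESeq2, 0.162. TRIP12, a ubiquitin ligase gene, and CAB39, a kinase scaffold gene, are well expressed neighbours on either side, with standard errors of 0.24 and 0.27. With 10 such genes on each side the median was -0.07 and the highest value 1.04, of B3GNT7. When genes with a mean of at least 10 were taken, the 5 nearest on each side had a median of 0.02 and a highest value of 2.23. That value, above the one of SP140, belonged to ENSG00000225963, the low-count gene antisense to SP110, with a standard error of 1.20 and an adjusted p of 0.757 in DESeq2. Relative to the median of the 10 neighbours the log2 fold change was 2.20 for SP140, 0.81 for SP110, 0.35 for SP140L and 0.32 for SP100.

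Chromosome 2 also differed between the controls. The median log2 ratio of control 3 to control 2 was -0.44 over 862 genes of the chromosome, against -0.06 over all 12924 genes. The median log2 fold change of cadmium over control was -0.24 on the chromosome, against -0.06 over all genes. Over the 10 neighbours the control ratio was -0.11. In the family the same ratio was -0.37 for SP140, 0.63 for SP110, 0.40 for SP140L and 0.000501 for SP100, so of the 4 genes SP140 came nearest to the chromosome median. The part of such regional differences in the values of the family was not tested.

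**Figure D3:**
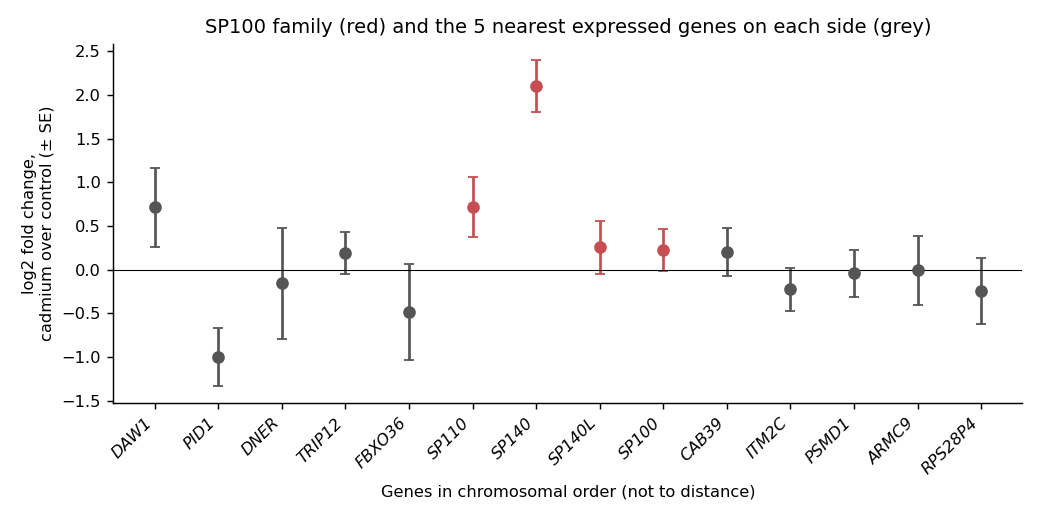
Log2 fold change of cadmium over control (vertical axis, points with bars of 1 standard error) for SP110, SP140, SP140L and SP100 in red and the 5 nearest genes on each side with a mean normalised count of at least 100 in grey, in chromosomal order. SP140 stands at 2.10, and the 10 neighbours lie between -1.004 and 0.72, while genes with lower counts, of which one reached 2.23, are not drawn.

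Genes that act with the family were examined as lists. PML nuclear body partners, which comprise body components, SUMO enzymes, histone H3.3 chaperones and proteins known to bind SP100, were all expressed. Of the 35 genes 0 were called in either direction and 0 had an unadjusted DESeq2 p-value below 0.05, with a median log2 fold change of -0.07. Among all 19834 genes tested, 0.6% were called higher, 0.534% lower, and 1373 had such a p-value. Both cadmium libraries lay below both controls for 10 of the 35 genes, or 28.6%, and above both for 4, or 11.4%. Over all genes with a mean normalised count of at least 10 these shares were 20.4% and 20.1%. The median over 18871 genes tested with a mean normalised count of at least 10 was -0.03. PML, the organiser of the bodies, had normalised counts of 9726 and 9372 in the controls and 5987 and 7547 in the cadmium libraries. Both cadmium libraries were lower, with a log2 difference of -0.50, and PML was not called (DESeq2 adjusted p = 0.757). ETS1, a transcription factor that binds SP100, had a log2 fold change of 0.55. DAXX, the histone H3.3 chaperone of the bodies, had a log2 fold change of 0.23.

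The SAND-domain relatives DEAF1, GMEB1 and GMEB2 had log2 fold changes of -0.08, -0.17 and -0.09, with 0 called, and AIRE, the relative that works in the thymus, was listed at 0 in every library. Among 12 other genes that encode a PHD finger next to a bromodomain 0 were called, with a median of -0.03. Over all genes tested 0.6% were called higher and 0.534% lower. The largest absolute values among the PHD-bromodomain genes were -0.45 for TRIM24, -0.40 for BAZ1B and -0.39 for ZMYND11. Of the 12 genes 6 had a value above 0 and 6 one below. TRIM24 had 4518 normalised counts in control 2 and 2661 to 2836 in the other libraries. ZMYND11 had 7259 in control 2 and 4049 to 4396 in the others.

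Interferon receptors, their kinases and the STAT and IRF factors were examined because interferons induce the family. Of 21 genes tested 0 were called, 1 had an unadjusted DESeq2 p-value below 0.05, and the median log2 fold change was -0.27. Over all 19834 genes tested 0.6% were called higher, 0.534% lower, and 1373 had such a p-value. Both cadmium libraries lay below both controls for 8 of these 21 genes, or 38.1%, against 20.4% over all genes with a mean normalised count of at least 10, and above both controls for 0 of them, against 20.1% over all such genes. USP18, an interferon-induced brake on the receptor, had 238 and 255 normalised counts in control cells and 112 and 135 in cadmium-resistant cells, a log2 difference of -0.99 that was not called (DESeq2 adjusted p = 0.323). IRF1, an activator of interferon-responsive promoters, had a log2 fold change of -0.44 and was named after its value was seen. SOCS1, a feedback inhibitor of cytokine signalling, had one of -0.72 with a standard error of 0.67.

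**Figure D4:**
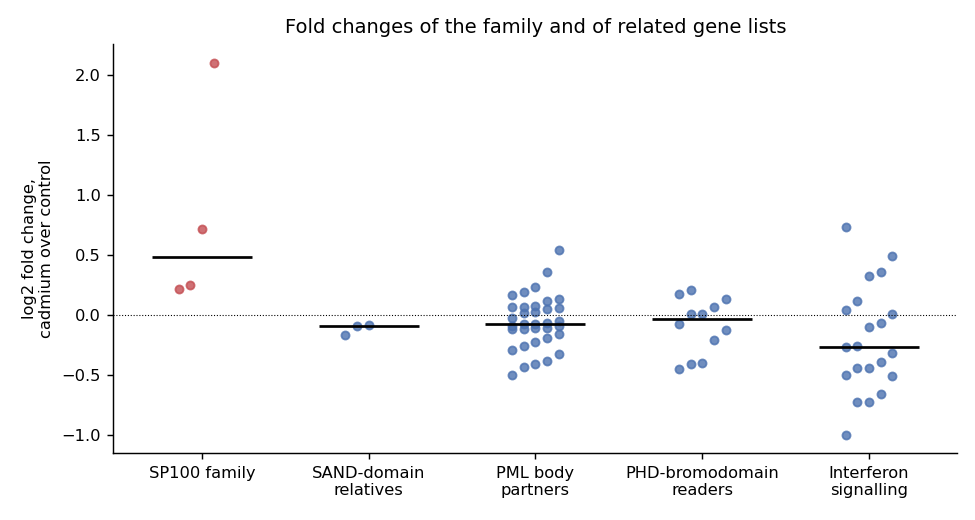
Log2 fold change of cadmium over control (vertical axis) for each gene with a mean normalised count of at least 10 in the SP100 family (red) and in lists of related genes (blue), with the list median as a black line. Medians of the related lists lie between -0.27 and -0.07 except the PHD-bromodomain readers at -0.03, and SP140, the gene the family was chosen by, is the highest point.

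The genes with a pattern most like that of SP140 over the 4 libraries were found by the root mean square difference of log2 profiles centred on the gene mean, among 12923 other genes with a mean normalised count of at least 100. These were ASB2 at 0.12, KYNU at 0.13, HAS2 at 0.18, MT2A at 0.20 and FAT3 at 0.20. ASB2 encodes a ubiquitin ligase subunit and had 144 and 111 normalised counts in the controls and 502 and 444 in the cadmium libraries. KYNU, a kynurenine pathway enzyme also on chromosome 2 but far from the cluster, had 46.4 and 42.5 in the controls and 171 and 201 in the cadmium libraries. HAS2 encodes a hyaluronan synthase, MT2A a metallothionein and FAT3 a large cadherin. The other members were much less alike, with SP110 at 0.78 and rank 366, SP100 at 0.95 and rank 1935, and SP140L at 0.97 and rank 2164. The likeness rests on 4 libraries in 2 groups, so any gene with a similar fold resembles SP140.

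**Figure D5:**
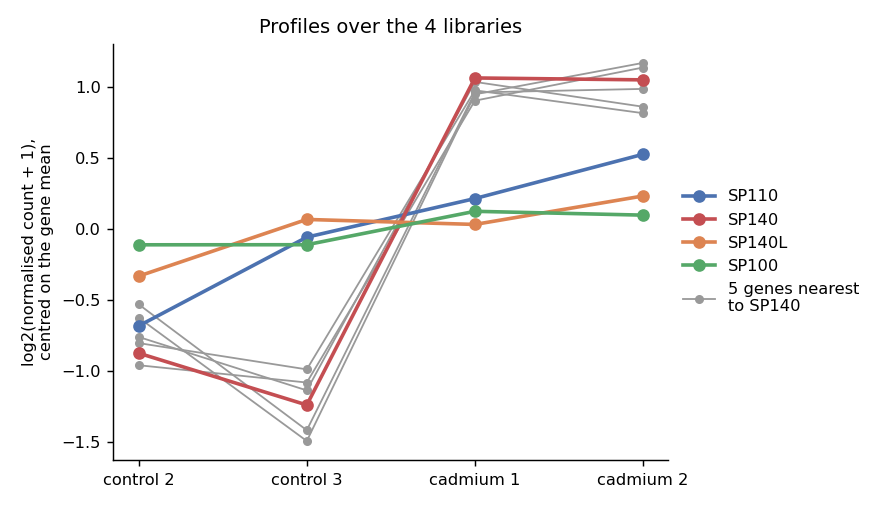
Profiles of SP110, SP140, SP140L and SP100 (coloured) and of the 5 genes nearest to SP140 (grey) over the 4 libraries on the horizontal axis, as log2 of the normalised count plus 1 minus the mean of the gene. Lines only join the points of a gene, and the other members stay closer to 0 than SP140 does, with root mean square differences from it of 0.78 to 0.97.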

How the data were processed

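Raw read counts per gene were deposited by the authors without normalization. Per the file headers and the study's methods, adaptors were trimmed with bbduk, reads were aligned to hg38 with hisat2, and featureCounts 2.0.1 assigned them to an Ensembl annotation with default settings, so exons were summed, strand was ignored and mates of a pair were counted singly. Even numbers made up 70.6% to 71.5% of counts from 1 to 20. Exon lengths are other values of the same table. The labels give the molecule as genomic DNA, whereas their protocol and the counts are those of RNA. The command in the file header names the control inputs A and B whereas the columns are numbered 2 and 3, so controls were assigned to their group only.

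Genes were tested with DESeq2 1.42.0 (R 4.3.3, Wald test, two-sided, Benjamini-Hochberg adjustment over all genes, threshold 0.1), the tool of the study. Genes with a mean normalised count below 7.65 were filtered. Size factors lay between 0.940 and 1.06. The members and lists were chosen with earlier results of these data known. Genes named from a list were those called or up to 3 with the largest absolute log2 fold change at a mean of at least 50, and the neighbours and the 5 genes most like SP140 followed fixed rules. DAXX and IRF1 were added, and some genes that the rule names are not reported here. Alternatives were edgeR 4.0.16, limma 3.58.1, other scalings and filters, halved counts and leaving out each library. The scripts were tested on simulated data. Symbols matched 61369 genes. Promoter windows came from RefSeq and transcripts from GENCODE, both on the same assembly as hg38, and protein sequences were not used here.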

Additional observations from a re-analysis of the deposited data

How the results depend on the processing

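No paired analysis was possible because the controls in the table are numbered otherwise than in the labels, so that fewer than 2 numbers are shared with certainty. With 2 libraries per group, a group left with 1 library was assumed to vary like the other group. The log2 fold change of SP140 lay between 1.92 and 2.30 when 1 library was left out, that of SP110 between 0.43 and 1.05, that of SP140L between 0.07 and 0.46 and that of SP100 between 0.20 and 0.23. Under the other settings these 4 values kept their direction, and SP110, SP140L and SP100 were not called under any setting except SP110 without control 3, at 1.05. The edgeR quasi-likelihood test and limma-voom called 0 genes higher and 0 lower over all genes, with 1422 and 1423 genes at an unadjusted p below 0.05, and SP110 had an adjusted p-value of 0.680 in edgeR and 0.669 in limma. DESeq2 called 119 genes higher and 106 lower, and leaving out 1 library gave 9 to 2678 higher and 5 to 3511 lower. The lowest counts came without cadmium 2 and the highest without control 3. Without control 2 there were 1149 higher and 1163 lower, and without cadmium 1 there were 12 and 5. Upper-quartile scaling gave 152 higher and 88 lower. The median log2 fold change of the interferon signalling list was between -0.30 and -0.16 and that of the neighbours between -0.26 and 0.09 when 1 library was left out.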
